A study of Mus musculus with 4 samples.

Results

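The neural cell adhesion molecule genes Ncam1 and Ncam2 and the polysialyltransferase genes St8sia2 and St8sia4 were followed in the developing mouse pontine nucleus. They are 4 of the 19938 genes that the arrays name with 1 symbol, and were taken by symbol alone. Each was read from 1 probe set, and no other probe set of the platform table named any of them. All 4 passed the level filter, a highest value of at least 8.41 on the log2 scale, as did 10901 genes in all. RNA came from the dissected pontine nucleus of ICR mice at embryonic day 17.5 (E17.5, a pool of 27 mice), postnatal day 1 (P1, 16 mice), P5 (13 mice) and P14 (12 mice). The labels give no genetic change or treatment for any age, and a dissected nucleus holds glia and vessels besides its neurons. Each pool was hybridised to 1 Affymetrix array, so no age has a replicate and no difference below has a test. Values are normalised log2 signals, on which a difference of 1 is 2-fold.

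NCAM is an immunoglobulin-type adhesion protein of neurons and glia that binds its own kind on neighbouring cells. In young brain tissue it carries polysialic acid, a long, strongly hydrated and negatively charged sugar chain that keeps membranes apart and eases cell migration, axon growth and synapse rearrangement. St8sia2 (also called STX) and St8sia4 (also called PST) are the Golgi enzymes that build this chain. St8sia2 is known as the main enzyme of the embryonic and early postnatal brain, and St8sia4 as the one that persists in adult brain regions. Pontine neurons migrate along the brainstem surface before birth and send mossy fibre axons to the cerebellum, both processes in which polysialylated NCAM has been studied.

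The array labelled P5 stood apart from the other 3, and it did not lie between P1 and P14. Markers of myelinating oligodendrocytes averaged 7.72 at E17.5 and 8.17 at P1 on the log2 scale, against 12.71 under the P5 label and 9.22 under the P14 label. The labels are used as deposited, and every order of ages involving P5 and P14 rests on them. Whether these labels were exchanged was not tested; with them exchanged, the low St8sia2 and St8sia4 values given next would belong to the last age and would not be followed by higher ones. Of 5 pontine neuron markers, 4 stayed above the level filter on every array: the homeobox factors Barhl1 (10.83 to 12.23) and Pax6 (10.01 to 11.52), Etv1 (9.96 to 10.54) and the vesicular glutamate transporter Slc17a6 (11.17 to 11.57). The fifth, the vesicular glutamate transporter Slc17a7, ranged from 8.16 at E17.5, under the filter, to 12.90 under the P5 label. Array medians lay between 7.89 and 7.94. The standard deviation of a difference between probe sets of the same gene, over 645 genes, was 0.10 to 0.18 on the log2 scale depending on the pair of arrays. This is the yardstick used below; it holds probe noise and not the spread between pools of mice.

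St8sia2 was at a high, even level on 3 arrays and far lower on the fourth. Its log2 signal read 11.90 at E17.5, 11.87 at P1, then 9.50 under the P5 label and 11.87 under the P14 label. The E17.5, P1 and P14 arrays lay within 0.03 of each other, less than the spread between probe sets, and only the array labelled P5 was low. The P5 value was 5.17-fold lower than the P1 value, a difference of −2.37, which is 13.5 times the probe set spread of that pair. Of 10901 genes, 28 had a more negative difference.

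St8sia4 had its lowest value on the same array but followed a graded order elsewhere. Its log2 signal read 9.90 at E17.5, 9.74 at P1, then 7.97 under the P5 label and 9.30 under the P14 label. E17.5 and P1 were close, at 1.4 times the probe set spread, and the array labelled P14 lay below both. The P14 array was 0.44 lower than P1, which is 4.2 times the spread, and the P5 array was 1.33 lower than P14, 9.5 times the spread. Against P1, the P5 array differed by −1.77, and 82 of 10901 genes had a more negative difference. The P5 level lies under 8.41 and background was not measured, so the size of this difference is inexact and no fold is given.

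The polysialyltransferase genes therefore shared their lowest array and parted on the array labelled P14. Against P1, that array differed by 0.00 for St8sia2 and by −0.44 for St8sia4. The gap between these differences, 0.44, is 3.0 times the spread expected of 2 probe sets. From the P5 to the P14 label, St8sia2 differed by 2.37 and St8sia4 by 1.33, but the second value is inexact for the reason given above, and no gap is read from it. Between E17.5 and P1 the gap was 0.13, or 0.8 times the spread, so around birth the enzymes differed by less than the spread.

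Because St8sia2 and St8sia4 had their lowest values on the same array, the sequence upstream of each gene's outermost annotated transcript start is shown, from RefSeq on GRCm38.p6, 5′ to 3′ on the gene's strand. Capitals mark matches to the motifs searched. These windows end at that outermost start, so bases inside any annotated transcript are left out. The St8sia2 window is chr7:74013728-74013932 on the minus strand, and the St8sia4 window is chr1:95667718-95667844 on the minus strand.
St8sia2: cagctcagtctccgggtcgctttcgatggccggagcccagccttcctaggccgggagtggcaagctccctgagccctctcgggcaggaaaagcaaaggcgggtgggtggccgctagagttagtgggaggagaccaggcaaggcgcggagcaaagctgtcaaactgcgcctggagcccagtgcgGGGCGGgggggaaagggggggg
St8sia4: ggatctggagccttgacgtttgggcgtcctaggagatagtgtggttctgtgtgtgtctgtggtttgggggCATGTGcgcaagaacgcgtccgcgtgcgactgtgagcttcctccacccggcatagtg
The motifs, on both strands, were the GC box GGGCGG, the CCAAT box CCAAT, the TATA box TATAAA and the E-box CANNTG. For background, RefSeq promoters running from 250 bases upstream of a listed start to 50 after it were cut to their first bases. These cuts match the windows in length but leave out the bases nearest that start. The St8sia2 window held 1 GC box and none of the others, and 25.6% of 32851 promoters cut to their first 205 bases held a GC box. The St8sia4 window held 1 E-box, found in 43.6% of promoters cut to their first 127 bases, and none of the others. Its G and C content was 59.1% against a median of 50.4%, and that of St8sia2 was 67.8% against 51.7%. The motifs found in the St8sia2 and St8sia4 windows thus differed, and each is a common match.

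Ncam1, which encodes the main carrier of polysialic acid, had nearly the same signal on 3 of the 4 arrays. Its log2 signal read 13.19 at E17.5 and again at P1, then 12.86 under the P5 label and 13.23 under the P14 label. The E17.5, P1 and P14 arrays differed by at most 0.04, within the probe set spread, and the P5 array differed from P1 by −0.33, 1.9 times the spread. After a further quantile normalisation that difference was −0.17, under the spread of 0.18. The single probe set does not separate the splice forms of Ncam1, which differ in their membrane anchor and inner domain.

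Ncam2, a relative of Ncam1 known from olfactory axons and not counted among the polysialylated proteins, had a small graded pattern. Its log2 signal read 11.57 at E17.5, 11.39 at P1, then 10.87 under the P5 label and 11.23 under the P14 label. The steps from E17.5 to P1 and from P1 to the P14 label, −0.18 and −0.16, were each 1.5 times the spread. The P5 array was 0.70 below E17.5, or 3.8 times the spread. For both Ncam genes the P5 and P14 arrays differed by nearly the same amount, 0.37 for Ncam1 and 0.36 for Ncam2, each 2.6 times the spread.

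**Figure D1:**
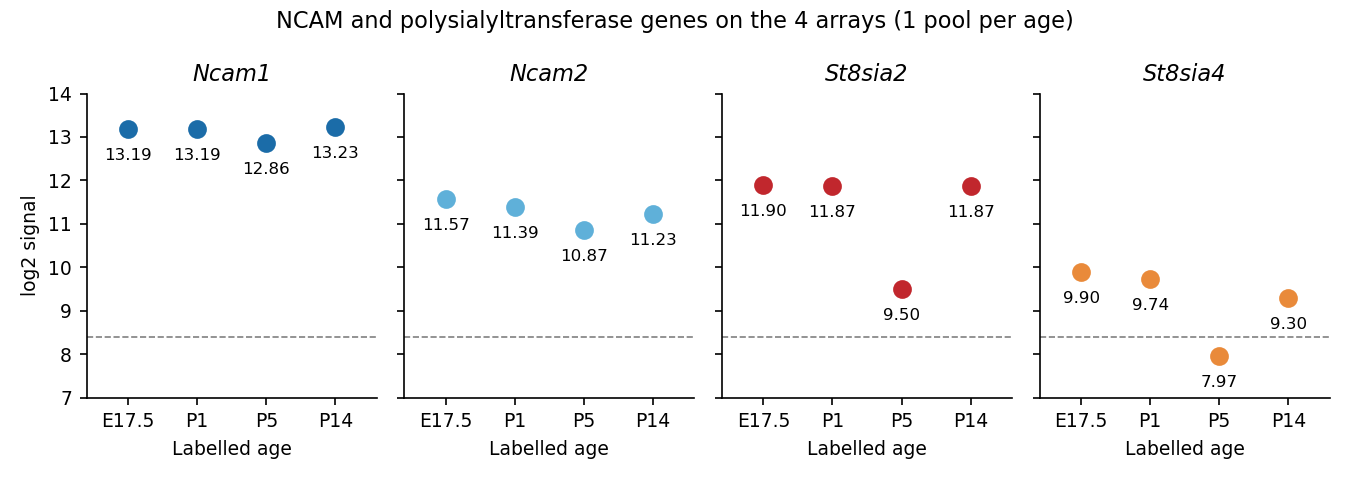
The log2 signal of each gene (vertical axis) on the arrays labelled E17.5, P1, P5 and P14 (horizontal axis), 1 point per array and no error bar because each age is 1 pool. The dashed line is the level filter of 8.41; St8sia2 stands at 11.87 to 11.90 on 3 arrays and at 9.50 on P5, and St8sia4 drops below the line on P5 at 7.97, while Ncam1 stays between 12.86 and 13.23.

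In comparisons with the array labelled P5, the enzymes differed more than the adhesion genes did. From P1 to the P5 label, the difference of St8sia2 minus that of Ncam1 was −2.04, 8.2 times the spread of 2 probe sets, and that of St8sia4 minus that of Ncam1 was −1.44, an inexact size. Among the other 3 arrays this order did not hold for St8sia2, which differed by at most 0.03 in size, against up to 0.34 for Ncam2. St8sia4 differed by up to 0.6 among those arrays, more than either Ncam gene. In contrast, from P1 to the P5 label Ncam2 and Ncam1 differed from each other by −0.19, 0.8 times the spread. These gaps between genes are taken within the same arrays, so a constant added to all genes of an array leaves them as they are.

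Cell type markers moved with these values. Of all genes past the level filter, 33.7% were lowest on the array labelled P5. The share of all genes highest on that array was not counted. All 10 young neuron markers (such as Dcx, a microtubule protein of migrating neurons) were lowest on the array labelled P5. Their log2 values ranged from 10.02 to 13.81 at E17.5, 6.07 to 13.79 at P1, 5.75 to 13.32 at P5 and 6.23 to 13.82 at P14, with means of 12.48, 11.81, 9.80 and 11.17. Of the 5 pontine neuron markers, 3 were lowest on the P5 array and 2 highest. From P1 to the P5 label Barhl1 differed by −0.96, Pax6 by −1.02 and Etv1 by −0.49, and Slc17a6 by 0.40 and Slc17a7 by 3.52. All 7 mature neuron markers were highest on the P5 array, with means of 10.45, 10.66, 12.59 and 11.57 in the order of the labels. All 9 myelinating oligodendrocyte markers named on the array were highest there too, ranging from 5.25 to 9.51 at E17.5, 5.40 to 10.55 at P1, 11.12 to 13.52 at P5 and 5.96 to 11.73 at P14. Oligodendrocyte precursor markers, from cells that can also carry polysialylated NCAM, had means of 9.30, 10.02, 10.99 and 10.52, and 5 of 6 were highest on the P5 array. Astrocyte markers had means of 9.59, 10.51, 11.68 and 11.21, with 5 of 8 highest on the P5 array, and microglial markers 7.63, 8.23, 9.01 and 8.54, with 5 of 6. Endothelial markers averaged 9.09, 8.98, 9.40 and 9.26, with 4 of 5 highest on the P5 array. Markers of GABAergic and glycinergic neurons averaged 8.57, 7.80, 7.70 and 7.93, with 3 of 4 lowest there. The part that cell composition plays in the St8sia2 and St8sia4 values was not tested. In bulk tissue, fewer cells of a type and less RNA per cell cannot be told apart.

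**Figure D2:**
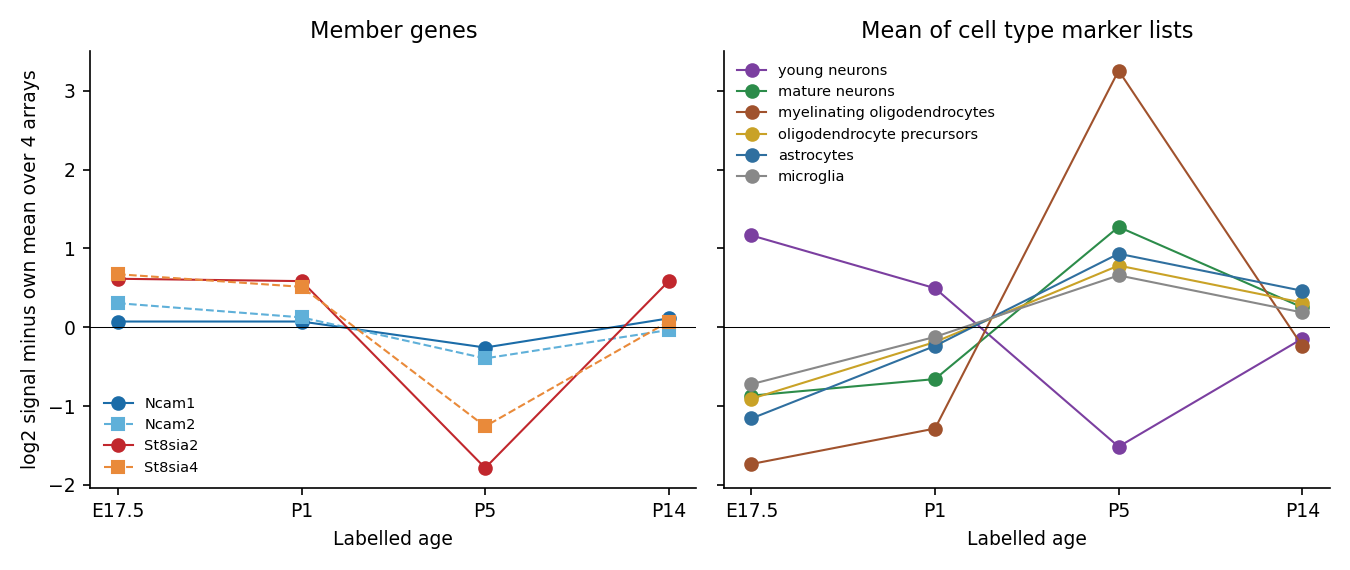
Left, the log2 signal of each of the 4 genes minus its own mean over the arrays, by labelled age; right, the same for the mean of 6 cell type marker lists. Lines join single arrays for reading only: St8sia2 and St8sia4 are lowest on P5 together with the young neuron list (mean 9.80), while the myelinating oligodendrocyte list is highest there (12.71).

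Counts of members past 2-fold were limited to comparisons with the array labelled P5. Between P1 and E17.5, 0 of 4 genes were at least 2-fold apart, where 1.1% of 10901 genes were. Between the P14 label and E17.5 it was 0 of 4 against 5.74% of all genes, and between the P14 label and P1 it was 0 of 4 against 1.47%. Between the P5 label and P1, 2 of 4 (St8sia2 and St8sia4) were at least 2-fold lower, against 3.94% of all genes, and none were higher, against 8.96%. The same 2 were at least 2-fold lower on the P5 label than at E17.5, against 5.5% of all genes, and at least 2-fold higher on the P14 label than on the P5 label, against 2.16%. These comparisons share arrays, so the counts are not separate pieces of evidence. The median difference from P1 to the P5 label was −1.15 for the 4 genes and 0.05 for all genes.

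The split of all genes depends on how the arrays are scaled to each other. As deposited, 977 genes were at least 2-fold higher and 429 lower from P1 to the P5 label. When each array was centred on the median level of 8 housekeeping genes, the counts were 200 and 5597, and the median of all genes shifted by −1.04. Centred instead on the median deviation of those genes from their own means, the counts were 525 and 1082 and the shift was −0.37. St8sia2 and St8sia4 were lowest on the array labelled P5 under every scaling tried, and at least 2-fold below P1. Ncam1 and Ncam2 were also at least 2-fold lower than P1 with the first centring, at −1.34 and −1.53, and not with the second, at −0.69 and −0.88. The small differences of Ncam1 from E17.5 and from P1 to the P14 label, 0.04 each, changed sign with both centrings, to −0.41 and −0.34 with the first and −0.13 and −0.05 with the second, so no direction is given for them. The level St8sia2 profile outside the P5 array likewise holds for the values as deposited: its P14 minus P1 difference was 0.00 as deposited, −0.39 with the first centring and −0.09 with the second.

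**Figure D3:**
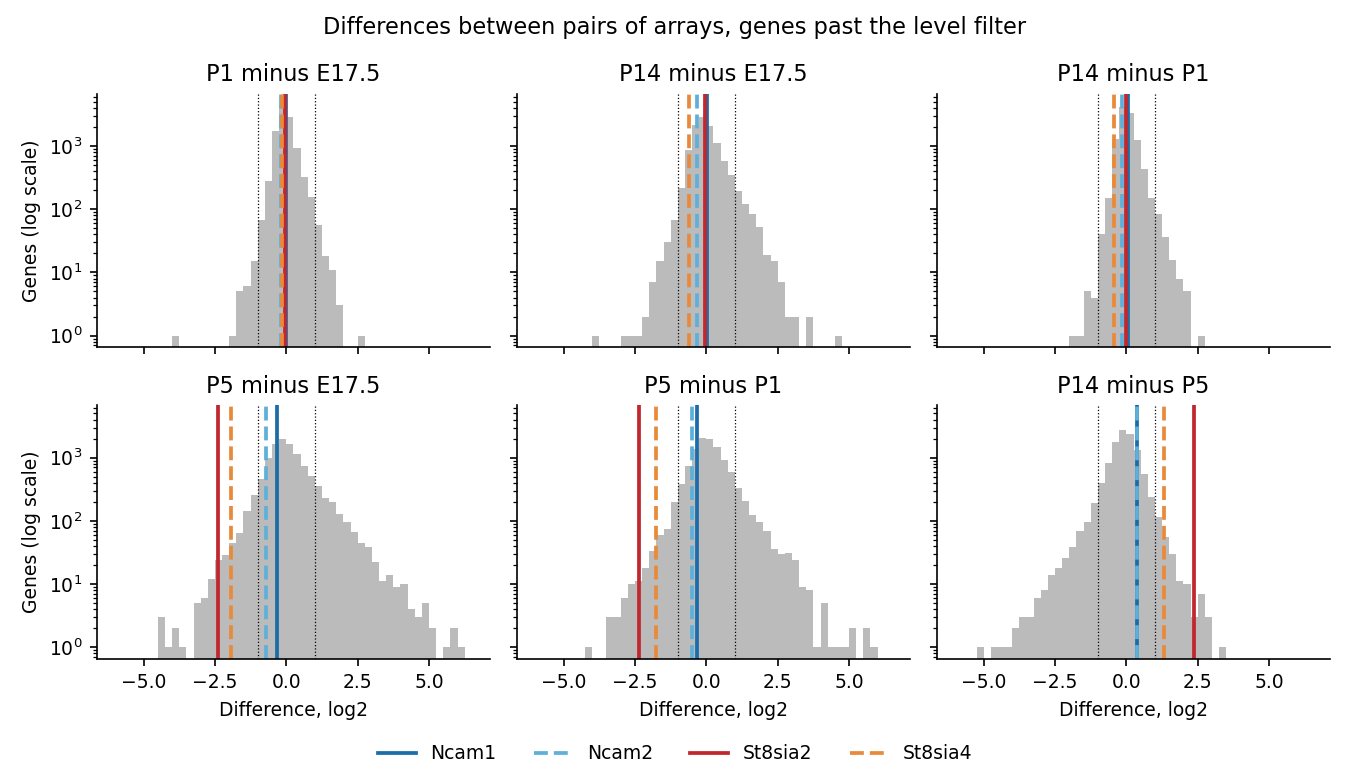
Histograms of the log2 difference of 10901 genes for the 6 pairs of arrays (vertical axis, number of genes on a log scale), with the 4 genes as coloured lines and 2-fold as dotted lines. In the upper row, without the P5 array, all 4 genes lie within 2-fold; in the lower row St8sia2 and St8sia4 lie beyond 2-fold in each panel and Ncam1 and Ncam2 do not.

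The shape of the St8sia2 profile was uncommon among genes low on the array labelled P5. In all, 3673 genes (33.7% of 10901) had their lowest value on that array, and 179 lay at least 2-fold below the lowest of the other 3 arrays. Among these 179, the median range over the E17.5, P1 and P14 arrays was 0.52, and St8sia2, at 0.03, had the smallest. A range of at most 0.1 was found for 10 of the 179, a limit chosen after the values were seen. Of these 10, Cxadr, an immunoglobulin-type adhesion protein of young brain, had a gap of 2.17 with a P5 value of 8.94. St8sia2 had a gap of 2.37. Slc18a3, the vesicular acetylcholine transporter, stood at 7.41 under the P5 label, below 8.41, so its gap is inexact and is not ranked here. St8sia4, with a range of 0.60, was 1 of 70 among the 179 whose other arrays spanned 0.6 or more. Its gap of 1.33 is inexact because its P5 value lies under 8.41. Without the array labelled P5, the ranges of the 4 genes were 0.04 (Ncam1), 0.34 (Ncam2), 0.03 (St8sia2) and 0.60 (St8sia4), beside a median of 0.32 over all genes. St8sia4 is then the most variable of the 4, with 81.1% of genes having a smaller range, and St8sia2 the least, with 0.578%.

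**Figure D4:**
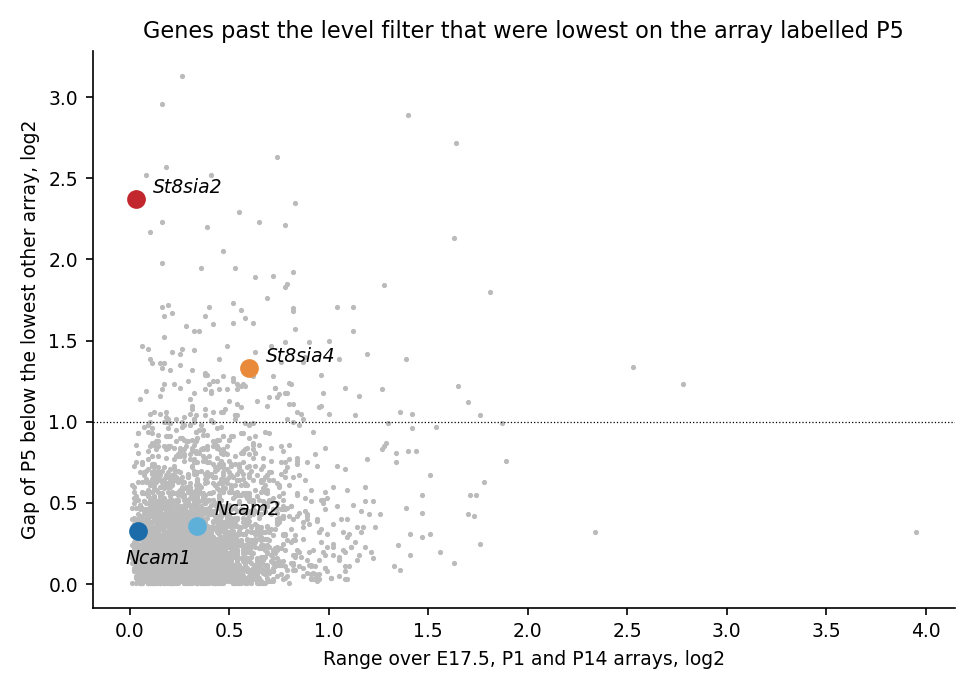
Each point is 1 of 3673 genes with its lowest value on the array labelled P5: the range of its values over the E17.5, P1 and P14 arrays (horizontal axis, log2) against the gap by which the P5 value lies below the lowest of them (vertical axis, log2). The dotted line marks 2-fold. St8sia2 sits at the left edge with a range of 0.03 and a gap of 2.37, and St8sia4 at 0.60 and 1.33, an inexact gap. Ncam1 and Ncam2 lie in the dense cloud at gaps of 0.33 and 0.36.

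Genes with the most similar profiles were ranked by the root mean square difference of the 4 log2 values, each gene centred on its own mean. Likeness over 4 arrays is a description. For St8sia2 the nearest were Cxadr (0.078), Slc18a3 (0.086), Slc10a4, a vesicle protein of cholinergic and monoaminergic neurons (0.13), Cbln1, a secreted synapse organiser (0.14), and the calcium buffer Calb1 (0.15). Cxadr stood at 11.21, 11.11, 8.94 and 11.13 on the log2 scale in the order of the labels, and Slc18a3 at 10.01, 9.93, 7.41 and 10.00. Slc18a3, Slc10a4, Cbln1 and Calb1 lay under 8.41 on the P5 array, as did Slc27a3 and Ccdc112 named next, so their order of likeness is inexact. Only 3 genes lay within 0.1 of St8sia2. Such counts, here and below, include predicted and unnamed genes, which the ranked names leave out. For St8sia4, 17 genes lay within 0.1, and the nearest were the fatty acid transport protein Slc27a3 (0.052), Crip2 (0.056), the actin-binding protein of dendritic spines Dbn1 (0.058), Ccdc112 (0.058) and the transcription factor Zic4 (0.06). Dbn1 stood at 12.72, 12.54, 10.92 and 12.14. The profiles of St8sia2 and St8sia4 differed from each other by 0.37.

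Many genes had profiles like those of the adhesion genes, so the genes nearest to Ncam1 and Ncam2 say little. As many as 808 genes lay within 0.1 of Ncam1 and 682 within 0.1 of Ncam2. The nearest to Ncam1 were Krtap17-1 (0.0071), Unc119 (0.0083), Pabpc5 (0.015), Tctn1 (0.015) and Clcn4 (0.017). Those nearest to Ncam2 were Arl15 (0.011), the activin receptor Acvr1b (0.012), Gdpd1 (0.012), Fam220a (0.015) and Lrrc40 (0.015).

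Counts of other polysialic acid pathway genes past 2-fold from P1 to the P5 label lay near the all-gene shares in the values as deposited. The pathway lists held 44 genes, of which 43 were named on the array and 37 passed the level filter. From P1 to the P5 label, 4 of 37 were at least 2-fold higher and 1 lower as deposited, beside 8.96% and 3.94% of all genes. With each array centred on the median housekeeping level the pathway counts were 1 and 16, beside 200 and 5597 of all genes. The names that follow are for the values as deposited. The largest difference of the 4 was that of St8sia5, at 3.06. The others were St3gal6, Neu4 and Prnp, and the 1 lower was Gap43. Without the level filter the counts over all 43, as deposited, were again 4 and 1. Neu4 passed the filter only through its values on the P5 and P14 arrays. With the filter on the mean over the arrays, the counts were 3 and 1, beside 722 and 389 of all genes. From P1 to the P14 label 1 of 37 was at least 2-fold higher, St8sia5, and none lower. Of all genes, 1.47% were 2-fold apart there in either direction. Nanp, St8sia6, Mgat1, Neu2, Neu3 and Gdnf did not pass the filter, and Ptk2 had no probe set naming it alone. Between E17.5 and P1, 0 of 37 were 2-fold apart, beside 1.1% of all genes. Among the 37, those with the largest differences there were St6gal1, which caps glycans with single sialic acids, at −0.85, and St8sia5 at 0.82. The St8sia5 difference is inexact because its E17.5 value of 7.67 lies under 8.41.

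None of the other St8sia genes past the filter, whose products act on gangliosides or make shorter chains, was 2-fold lower under the P5 label. St8sia5, a ganglioside sialyltransferase, read 7.67 at E17.5, 8.49 at P1, then 11.55 under the P5 label and 9.59 under the P14 label. It was highest where the polysialyltransferases were lowest, with a difference of 3.06 from P1 to the P5 label, and it was also above P1 on the array labelled P14, by 1.10. St8sia1, which makes the ganglioside GD3, differed by 0.36 from P1 to the P5 label, and St8sia3 by −0.11. Of the 3 St8sia genes outside the members that passed, 1 was at least 2-fold higher and none lower, with a median of 0.36. Over all genes 8.96% were higher and 3.94% lower from P1 to the P5 label, so none lower among 3 is near the share of all genes.

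Among genes that supply the activated sugar, 4 passed the filter, and their median difference from P1 to the P5 label was −0.12, with 0 of 4 at least 2-fold higher (8.96% of all genes) and 0 of 4 lower (3.94%). From E17.5 to the P5 label 1 of 4 was at least 2-fold lower, beside 5.5% of all genes; this was Nans, at −1.05. Nans, the sialic acid synthase, differed by −0.76 from P1 to the P5 label, and the Golgi transporter Slc35a1 by −0.26. In that comparison Gne, which starts the pathway, differed by 0.02, and Cmas, which activates sialic acid, by 0.23. The enzymes that build and cap the N-glycans on which polysialic acid is placed had a median of 0.14 in the same comparison. Of the 11 past the filter, 1 was at least 2-fold higher, beside 8.96% of all genes. That gene was St3gal6, higher by 1.12; St3gal3 followed at 0.47, and Man2a1 at −0.31 and Mgat4a at −0.15 went lowest. Among the sialidases, which take sialic acid off again, 2 of 4 passed the filter. Neu4, abundant in brain, stood at 7.55, 7.81, 9.38 and 8.50 in the order of the labels, a difference of 1.57 from P1 to the P5 label that is inexact because the P1 value lies under 8.41. Neu1, the lysosomal form, differed by 0.24.

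Of 3 other genes for proteins reported to carry polysialic acid, 0 were at least 2-fold apart from P1 to the P5 label, with a median of −0.21. Over all genes in that comparison, 8.96% were at least 2-fold higher and 3.94% lower, so 0 of 3 is near the shares of all genes. The adhesion protein Cadm1 differed by −0.70, the semaphorin receptor Nrp2 by −0.21 and Glg1 by 0.19. Partners of NCAM had a median of −0.12; of the 11 past the filter, 1 reached 2-fold upward and 1 downward. Gap43, a growth cone protein that acts downstream of NCAM, read 12.45 at E17.5, 12.62 at P1, then 10.80 under the P5 label and 12.51 under the P14 label. Its P5 value was 1.82 below P1, and its other arrays lay within 0.17 of each other. The prion protein gene Prnp differed by 1.23, the GDNF receptor Gfra1 by 0.91 and the matrix protein Agrn by −0.77. The proteases that shed adhesion proteins had a median of 0.62, and 0 of 3 reached 2-fold; Bace1 differed by 0.82, Adam17 by 0.62 and Adam10 by −0.09.

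**Figure D5:**
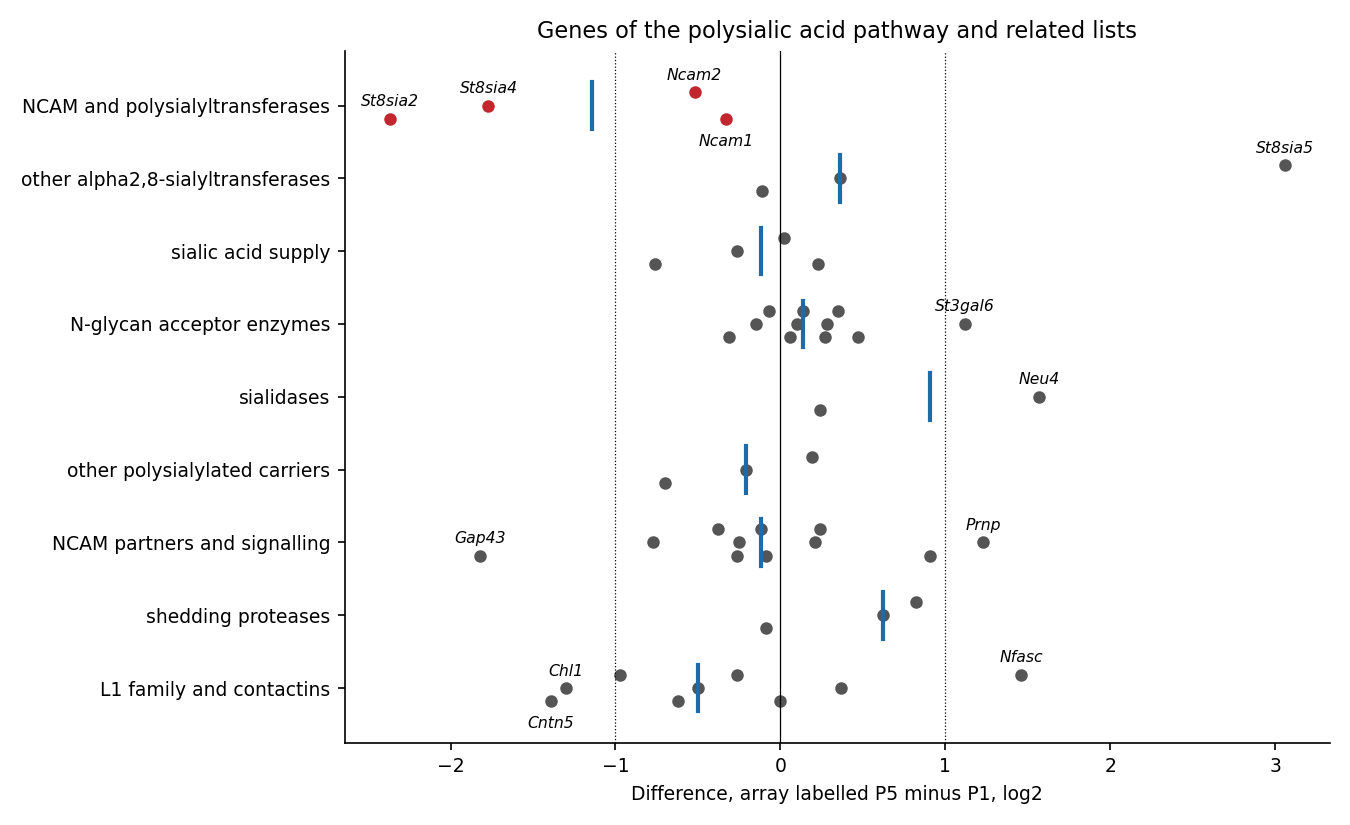
The log2 difference from P1 to the array labelled P5 (horizontal axis) of each gene past the level filter, by list (vertical axis; small vertical offsets only separate points). Blue bars are list medians and dotted lines mark 2-fold; St8sia2 and St8sia4 lie left of −1 with a median of −1.15 for the 4 genes, and St8sia5 lies farthest right at 3.06.

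The neighbouring L1 family and contactins, also immunoglobulin-type adhesion proteins of axons, spread in both directions. Of 9 genes past the filter, 1 was at least 2-fold higher from P1 to the P5 label and 2 were lower, with a median of −0.50. Over all genes these shares were 8.96% and 3.94%. Cntn5 (−1.39) and Chl1 (−1.30) were lower, Nfasc, which organises the axon initial segment and nodes, was higher (1.46), and Cntn1 differed by 0.37. L1cam, a binding partner of NCAM, differed by −0.26, close to Ncam1 at −0.33. Their median between E17.5 and P1 was 0.04 and that of the 4 NCAM and polysialyltransferase genes was −0.10.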

How the data were processed

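Total RNA from 4 pools (68 mice) was hybridised to 4 arrays. The file holds log2 signals of each probe set, which the authors normalised with Affymetrix Expression Console per the submitters' processing notes (settings and version: not given in the sources used here). That scale was taken from the range of the values, 1.84 to 14.72. Of 35556 probe sets, 21789 carry 1 symbol in the platform table. Each gene was taken as its probe set with the highest mean, and kept when its highest array reached 8.41, the median of those probe sets. Differences were taken on the log2 scale and called at 2-fold, with no test (1 array per age). Named beside the 4 genes were, per list, up to 2 genes at each end of the differences among those past the filter, and the 5 genes nearest in profile, leaving out predicted and unnamed genes, small RNAs and olfactory or vomeronasal receptors. Members and lists were chosen with earlier results of these data known. Scripts (Python 3.11.15, pandas 2.3.3) were tested on simulated data.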

Additional observations from a re-analysis of the deposited data

How the results depend on the processing

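With 1 pool and 1 array per age, no result has a replicate and the number of arrays limits every difference. No paired analysis was possible because no age has more than 1 array. Quantile normalisation left all 24 member differences within the probe set spread of their values as deposited. Averaging probe sets could not change these differences, because each member has 1 probe set. The same holds for choosing probe sets and applying the filter without the array labelled P5, an alternative added after seeing the data. No member difference that passed 2-fold changed sign under any alternative.

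Centring on the median housekeeping level moved 20 of the 24. For Ncam1 the values were −1.41 (P5 minus E17.5), −0.41 (P14 minus E17.5), −1.34 (P5 minus P1), −0.34 (P14 minus P1) and 1.00 (P14 minus P5). In the same order they were −1.78, −0.79, −1.53, −0.55 and 0.99 for Ncam2, −3.48, −0.48, −3.38, −0.39 and 3.0 for St8sia2, and −3.01, −1.05, −2.79, −0.82 and 1.96 for St8sia4. The members at least 2-fold lower were then 4 from E17.5 to P5, 1 from E17.5 to P14 and 4 from P1 to P5. Pathway genes were 1 higher and 18 lower (P5 minus E17.5), 3 lower (P14 minus E17.5), 1 higher and 16 lower (P5 minus P1), 0 higher (P14 minus P1) and 6 higher (P14 minus P5). Of all genes, 288 were higher and 6832 lower (P5 minus E17.5), and 1049 were lower (P14 minus E17.5). From P1 to P5, 200 of all genes were higher and 5597 lower. For P14 minus P1, 36 were higher, and for P14 minus P5, 1723. Centring on the median deviation of the housekeeping genes, added after seeing the data, moved 16. For P5 minus E17.5, P14 minus E17.5, P5 minus P1 and P14 minus P5 the values were −0.77, −0.13, −0.69 and 0.64 for Ncam1, −1.14, −0.51, −0.88 and 0.63 for Ncam2, −2.84, −0.20, −2.73 and 2.64 for St8sia2, and −2.37, −0.77, −2.13 and 1.60 for St8sia4. Pathway genes were then 5 lower (P5 minus E17.5), 1 lower (P14 minus E17.5), and 2 higher and 4 lower (P5 minus P1). Counts of all genes, in the same order, were 1839 lower, 259 lower, and 525 higher and 1082 lower. Both centrings subtract a constant from every gene of an array, so all genes of a pair shift alike.

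At 1.5-fold, 1 member was lower from E17.5 to P14. Pathway genes higher and lower were 1 and 1 (P1 minus E17.5), 7 and 5 (P5 minus E17.5), 2 and 3 (P14 minus E17.5), 7 and 4 (P5 minus P1), and 2 and 7 (P14 minus P5), with 2 higher for P14 minus P1. Of the 5 genes most like each member, ranking by Pearson correlation shared 2 for Ncam1, 0 for Ncam2, 2 for St8sia2 and 0 for St8sia4; quantile normalisation shared 0 for Ncam1 and 3 for Ncam2.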
